A study of Homo sapiens with 6 samples.

Results

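The genes described here are the surface serine proteases of epithelial cells and the membrane-bound inhibitors that restrain them. They were ST14, PRSS8, TMPRSS2, TMPRSS4 and TMPRSS13 on the protease side and SPINT1 and SPINT2 on the inhibitor side. The 7 members were taken by symbol, through their Ensembl identifiers, from the 27264 genes of the count table. The rule itself used no measured value, but the members were chosen with earlier results of these data known. The series profiled DLD-1, an established human colorectal cancer cell line, and its title sets ZEB2 as mediator of an epithelial-to-mesenchymal transition (EMT). Each library was a 3′ messenger RNA library (QuantSeq 3′ FWD), in which reads come from the 3′ end of polyadenylated transcripts.

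The labels give all 6 libraries the genotype ZEB2 WT and name 3 clones, WT2, WT5 and WT37. The library names write the cell line as DLD.1_TR21, and the labels do not say what TR21 stands for. Each clone was sequenced once without DOX, the usual short form of doxycycline, and once with it, so each group held 3 libraries. Cells without DOX are called epithelial in the labels and cells with DOX mesenchymal. The construct's promoter and the dose and duration of DOX are not stated in the labels. The libraries analysed here include none from cells given DOX without the construct, so an effect of DOX itself cannot be told apart from one of ZEB2.

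Type II transmembrane serine proteases are anchored in the plasma membrane by an N-terminal segment and carry a trypsin-like catalytic domain outside the cell. They are made as inactive zymogens, and matriptase, encoded by ST14, and prostasin, the lipid-anchored protease encoded by PRSS8, are known to activate each other on epithelial surfaces. HAI-1 (SPINT1) and HAI-2 (SPINT2) are transmembrane inhibitors with Kunitz domains that bind the active protease. In the intestine this system is known for processing growth factor precursors, the adhesion molecule EpCAM and sodium channel subunits, and for keeping the epithelial barrier intact.

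ZEB proteins are zinc finger repressors that bind the E-box CACCTG, and grainyhead factors, which support epithelial genes, bind a site with the core letters AACNNGTT. Promoter sequence from RefSeq (GRCh38.p14) was matched for 1 of the 7 members, SPINT1, which has 2 start sites in that table. Both motifs were searched on both strands of the 250 bases before each start. The upstream site, chr15:40843798-40844047, held neither motif. The downstream one, chr15:40844227-40844476, held 1 match to CACCTG, 26 bases before the start, and none to AACNNGTT. The stretch around it is shown because it holds the only E-box match found, with the match in capitals. It is read on the plus strand, where CAGGTG is the reverse complement of CACCTG.
SPINT1, chr15:40844431-40844476, plus strand: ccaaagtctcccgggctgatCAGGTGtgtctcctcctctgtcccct
It overlaps 0 exons of GENCODE release 29 and lies within the span of the longer SPINT1 transcripts, in their first intron. Among all 35116 promoters of the table, 17.5% held CACCTG in the same length and 3.0% held AACNNGTT, so an E-box match is common. Binding was not measured.

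Between 5440093 and 7164426 reads per library fell in genes, so 1 read stood for 0.140 to 0.184 CPM, the read count scaled to the total of reads in genes. Because these are 3′ end counts, gene length does not enter them, and CPM of different genes are set side by side as shares of reads. ZEB2, the targeted gene, had few reads. In WT2 there were 9 of them without DOX against 20 with it, in WT5 5 against 9, and in WT37 3 against 22. Each clone had more with DOX, and the log2 fold change was 1.39 (SE 0.48, edgeR with the clone as block, adjusted p = 0.225), which did not pass the threshold of 0.05. The labels do not say whether transcripts of the construct carry the 3′ end counted here. Of the 11 colon epithelium markers, 9 passed the filter on low counts, among them EPCAM at 877 ± 122 CPM without and 558 ± 172 CPM with DOX (SD, n = 3), while CDX1 was at 0 in every library. Summed markers of fibroblasts stayed at 0.735 to 1.95 CPM without DOX and 0.160 to 1.83 CPM with it, those of endothelium at 0 to 0.496 and 0 to 0.424, and those of leukocytes at 6.62 to 10.1 and 5.13 to 12.6, of which CD14 made up most.

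The 7 members spanned a wide range of expression in these cells. ST14 had the highest level, with a mean of 744 CPM over the 6 libraries and rank 180 of 27264 genes, followed by SPINT2 at 574 CPM and rank 252. SPINT1 stood at 33.1 CPM, TMPRSS2 at 17.9 and TMPRSS13 at 8.37. TMPRSS4 at 0.403 CPM and PRSS8 at 0.120 CPM were near the limit of detection. The library ranges of ST14 (568 to 999 CPM) and SPINT2 (462 to 620 CPM) overlapped, as did those of TMPRSS2 and TMPRSS13, and of TMPRSS4 and PRSS8. Those of SPINT2 and SPINT1, of SPINT1 and TMPRSS2, and of TMPRSS13 and TMPRSS4 did not. DLD-1 thus had abundant transcripts of matriptase and of its inhibitor HAI-2, and nearly no reads counted for prostasin.

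**Figure D1:**
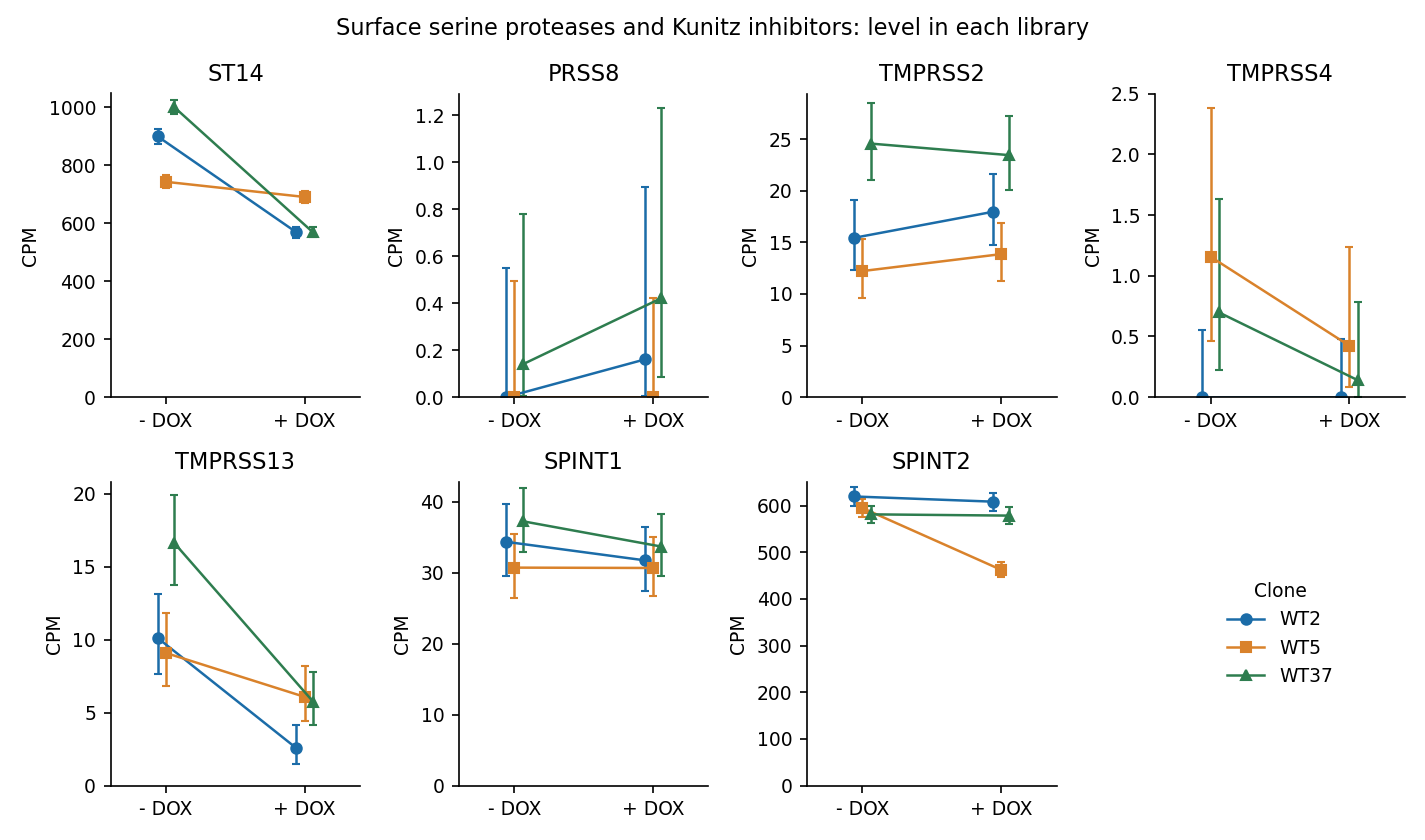
Level of each member in CPM (vertical axis, from 0) in the libraries without and with DOX (horizontal axis). Lines join the 2 libraries of a clone and bars are exact 95% Poisson intervals, which cover counting error only; at 0 reads the bar reaches the level of 3 reads. ST14 and TMPRSS13 are the members whose 3 libraries with DOX all lie below the 3 without, and the WT5 lines of both are the flattest.

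With DOX, the members did not move together. TMPRSS13 was lower in all 3 clones and was the 1 member that fell past the threshold, in the fit with the clone as block. ST14 was lower on average but unevenly over the clones, and did not pass the threshold in that fit or in the fit without the block. TMPRSS2 and SPINT1 had small differences with intervals that include 0. SPINT2 was lower in the WT5 library with DOX and level in the other clones.

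The DOX comparison was fitted over all 11732 genes that passed the filter on low counts, which kept 5 of the 7 members and removed PRSS8 and TMPRSS4. In edgeR's quasi-likelihood test without a clone term, 0 members were called, against a background of 0% of all genes called. At an unadjusted p under 0.05 the same fit had 709 genes and 2 members (ST14 and TMPRSS13), and over all genes DESeq2 called 57 and limma-voom 0, with 0 members in each. With the clone as block, the fit called 1 of the 5 members and 1.3% of all genes, 0.639% lower and 0.656% higher with DOX. Libraries of the same clone deviated together, so both fits are given below. Of the 5 members, 4 had a log2 fold change below 0 in the blocked fit, as had 5732 of the 11732 genes tested. The median of the 5 was -0.17, beside 0.01 over all genes tested. CPM was lower with DOX in all 3 clones for the same 4 members, as it was for 13.8% of all genes tested, while 0 members and 21.3% of genes were higher in all 3. For both inhibitors most of these within-clone differences lay within counting error. In bulk libraries, fewer cells of a type and less RNA per cell cannot be told apart.

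ST14 (ENSG00000149418, chromosome 11, 130159562 to 130210376, plus strand) encodes matriptase, the protease at the centre of the system. Without DOX its level in WT2, WT5 and WT37 was 898, 742 and 999 CPM. With DOX it was 568, 690 and 568 CPM in the same order. The 3 libraries with DOX all lay below the 3 without, and the WT5 pair lay closest together.

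The mean was 880 ± 130 CPM without and 609 ± 70.4 CPM with DOX (SD, n = 3). The log2 fold change was -0.56 (SE 0.15, 95% interval -0.90 to -0.23, edgeR without the block, adjusted p = 0.468) or a change of -32.4%. With the block it was again -0.56 (SE 0.14, interval -0.88 to -0.25, edgeR, adjusted p = 0.110). These intervals are not adjusted for the number of genes, and by the adjusted test the difference was not called. By size it stood at rank 375 from the lowest of the 11732 genes in the blocked fit, within the lowest 3.20%. Non-overlapping lower CPM was seen for 2 of the 5 members, ST14 and TMPRSS13, and for 4.56% of all genes tested, and non-overlapping higher CPM for 0 members and 6.55% of genes.

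Within clones, ST14 changed by -0.66 on the log2 scale in WT2 (95% interval -0.72 to -0.60), -0.11 in WT5 (-0.16 to -0.05) and -0.81 in WT37 (-0.87 to -0.76). These intervals are exact conditional ones and cover counting error only, since each clone has 1 library per condition. The interval of WT5 overlapped neither of the others. Differences of the DOX effect between clones have no replicate and were not tested. A ratio of -0.5 or lower was reached by 2 of the 5 tested members in WT2 (ST14, TMPRSS13), 1 in WT5 (TMPRSS13) and 2 in WT37 (ST14, TMPRSS13), against 7.65%, 8.15% and 6.72% of all genes tested. ZEB2 with DOX had 20, 9 and 22 reads in WT2, WT5 and WT37, so the clone with the smallest ST14 difference was also the one with the fewest ZEB2 reads with DOX. These are small counts of 1 library each, and WT2 without DOX also had 9 ZEB2 reads, with ST14 at 898 CPM. The part of ZEB2 level in the ST14 difference was not tested. Without clone WT5, the blocked fit of the remaining 4 libraries gave -0.79 for ST14 (edgeR, adjusted p = 0.000418), and without WT2 or WT37 ST14 was not called. Over all genes, the blocked fit called 743 without WT5, 8 without WT2 and 5 without WT37, beside 152 with all clones.

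**Figure D2:**
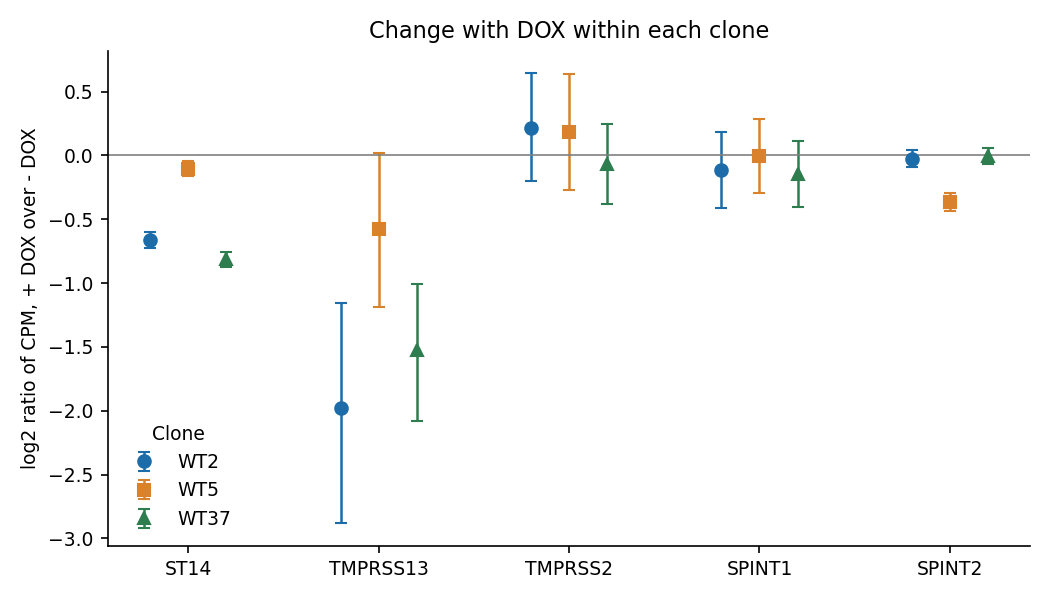
Log2 ratio of CPM with over without DOX in each clone (vertical axis) for the 5 members that passed the filter on low counts. Bars are exact 95% conditional intervals for counting error. TMPRSS13 lies lowest in every clone, ST14 is well below 0 in WT2 and WT37 and near 0 in WT5, and the interval of SPINT2 lies wholly below 0 in WT5 alone.

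TMPRSS13 (ENSG00000137747, chromosome 11, 117900643 to 117929459, minus strand) encodes a transmembrane serine protease known from skin and other stratified epithelia. Its reads without DOX numbered 55, 55 and 119 in WT2, WT5 and WT37, or 10.1, 9.09 and 16.6 CPM. With DOX they numbered 16, 43 and 41, or 2.57, 6.08 and 5.76 CPM. Every library with DOX lay below every library without, and WT37 had the highest level of the 3 clones without DOX.

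The mean went from 11.9 ± 4.08 to 4.80 ± 1.94 CPM (SD, n = 3). TMPRSS13 fell by 1.35 on the log2 scale in the blocked fit (SE 0.27, 95% interval -1.92 to -0.77, edgeR, adjusted p = 0.0359) or a change of -60.7%, at rank 44 from the lowest of 11732 genes. The fit lacking the block gave a log2 fold change of -1.34 (SE 0.34, interval -2.10 to -0.59, edgeR, adjusted p = 0.413) and the gene was not called. The log2 ratio was -1.98 in WT2 (95% counting interval -2.88 to -1.15), -0.58 in WT5 (-1.19 to 0.02) and -1.53 in WT37 (-2.08 to -1.0). The interval of WT5 thus reached just past 0 and overlapped that of each other clone. The blocked call was lost without WT2, at -1.11 (edgeR, adjusted p = 0.245), and without WT37, at -1.18 (edgeR, adjusted p = 0.414). It was kept without WT5, at -1.74 (edgeR, adjusted p = 0.00220). Over all genes, the blocked fit called 8 without WT2, 5 without WT37 and 743 without WT5, beside 152 with all clones. TMPRSS13 is the least abundant of the tested members, and 329 reads over 6 libraries carry these values.

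TMPRSS2 (ENSG00000184012, chromosome 21, 41464551 to 41531116, minus strand) encodes a transmembrane protease best known from prostate and airway epithelium. Its level was 15.4, 12.2 and 24.6 CPM without DOX in WT2, WT5 and WT37, and 18.0, 13.9 and 23.5 CPM with DOX. The libraries ordered by clone, with both WT37 libraries highest and both WT5 libraries lowest, and the 2 DOX groups overlapped.

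The means were 17.4 ± 6.40 and 18.4 ± 4.81 CPM (SD, n = 3). The log2 fold change with DOX was 0.04 without the block (SE 0.26, interval -0.54 to 0.62, edgeR, adjusted p = 0.997) and 0.06 with it (SE 0.16, interval -0.28 to 0.40, edgeR, adjusted p = 0.918). The sign of this small value turned when single clones or libraries were left out, down to -0.17.

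PRSS8 (ENSG00000052344, chromosome 16, 31131433 to 31135762, minus strand), the prostasin gene, had 0, 0 and 1 reads without DOX in WT2, WT5 and WT37, and 1, 0 and 3 with DOX. Where it had 0 reads, the depth allows up to 0.551 CPM in WT2 without DOX and 0.496 and 0.424 CPM in WT5 without and with DOX (3 reads of the library). The annotation places the antisense gene AC009088.3 over 357 bases of PRSS8 exon, and the labels do not say whether strand was used, so the PRSS8 count is uncertain to that extent. TMPRSS4 (ENSG00000137648, chromosome 11, 118077012 to 118121890, plus strand), a transmembrane protease described in several carcinomas, was counted 0, 7 and 5 times in the libraries without DOX and 0, 3 and 1 times in those with it, in the same clone order. The filter on low counts removed both, and with no filter edgeR called neither of them.

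An exact two-sided permutation test of their CPM, 3 libraries against 3, gave p = 0.4 for PRSS8 and p = 0.4 for TMPRSS4, where the smallest p this design allows is 0.1. TMPRSS4 was seen in WT5 and WT37 and had 0 reads in both WT2 libraries, which allows up to 0.551 and 0.481 CPM there. A difference with DOX was not detectable for either gene at this depth.

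SPINT1 (ENSG00000166145, chromosome 15, 40844018 to 40858207, plus strand) encodes HAI-1, the inhibitor that binds matriptase at the surface. It had 34.4, 30.7 and 37.3 CPM without DOX in WT2, WT5 and WT37, and 31.8, 30.7 and 33.7 CPM with DOX. All 6 libraries lay in a narrow band, and the groups overlapped.

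The means were 34.1 ± 3.28 and 32.1 ± 1.53 CPM (SD, n = 3). The log2 fold change was -0.13 without the block (SE 0.14, interval -0.44 to 0.18, edgeR, adjusted p = 0.972) and -0.13 with it (SE 0.12, interval -0.40 to 0.14, edgeR, adjusted p = 0.721). The intervals of all 3 within-clone ratios include 0. An antisense gene, SPINT1-AS1, shares 100 bases of exon with SPINT1 and had 877 reads over the 6 libraries, and the labels do not say whether strand was used in counting, so reads of this pair in the shared bases cannot be told apart.

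SPINT2 (ENSG00000167642, chromosome 19, 38244035 to 38292614, plus strand) encodes HAI-2, which inhibits both matriptase and prostasin and is the abundant inhibitor of these cells. Its level without DOX was 619, 595 and 581 CPM in WT2, WT5 and WT37, and with DOX 608, 462 and 578 CPM. The WT5 library with DOX was the lowest, and the other 5 lay close together.

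The means were 598 ± 19.4 and 550 ± 77.1 CPM (SD, n = 3). The log2 fold change was -0.16 without the block (SE 0.13, interval -0.46 to 0.14, edgeR, adjusted p = 0.958) and -0.17 with it (SE 0.09, interval -0.37 to 0.03, edgeR, adjusted p = 0.469). The within-clone log2 ratio was -0.03 in WT2, -0.36 in WT5 (95% counting interval -0.43 to -0.29) and -0.01 in WT37, so the clone with the smallest ST14 difference had the largest SPINT2 difference. The annotation places AC011479.1 over 242 bases of SPINT2 exon on the same strand, so reads there are uncertain to that extent.

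Both sides of the balance can be read from the same library, since a ratio of 2 genes within a library does not depend on its scaling. Protease reads came almost wholly from ST14, with a share of 95% to 97.2% of the 5 proteases' reads in the 6 libraries. Inhibitor reads came from SPINT2, with 93.8% to 95.1%. Summed over members, protease CPM was 910 ± 139 without and 632 ± 67.8 with DOX, and inhibitor CPM 633 ± 18.8 and 582 ± 78.1 (SD, n = 3).

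The ratio of ST14 to both inhibitors together was 1.37 without and 0.888 with DOX in WT2, and 1.61 and 0.928 in WT37. In WT5 it was 1.19 without and 1.4 with DOX. ST14 reads thus outnumbered those of both inhibitors in 4 libraries and were fewer in the WT2 and WT37 libraries with DOX. WT5 moved in the direction opposite to the other clones. Reads were not counted as molecules, so a ratio above or below 1 holds for reads and not for transcripts. The 95% counting intervals of WT5, 1.14 to 1.24 and 1.34 to 1.46, do not overlap. The means were 1.39 ± 0.215 and 1.07 ± 0.285 (SD, n = 3), the groups overlapped, and no test was run on the ratio.

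Set against SPINT1 alone, ST14 was at 26.1, 24.2 and 26.8 reads per SPINT1 read without DOX in WT2, WT5 and WT37, and at 17.9, 22.5 and 16.9 with DOX. Here all 3 libraries with DOX lay below all 3 without. In WT5, however, the 95% counting intervals of this ratio overlap, at 20.9 to 28.1 without and 19.6 to 25.9 with DOX, so its difference there lay within counting error. Between the minor proteases, TMPRSS13 had 0.655, 0.743 and 0.676 reads per TMPRSS2 read without DOX and 0.143, 0.439 and 0.246 with DOX, with no overlap between the groups. TMPRSS2 reads outnumbered TMPRSS13 reads in all 6 libraries. The CPM of ST14 and TMPRSS13 was already lower with DOX without overlap of the groups, as it was for 4.56% of all genes tested. The ratios to SPINT1 and to TMPRSS2 repeat that separation and are not separate results.

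**Figure D3:**
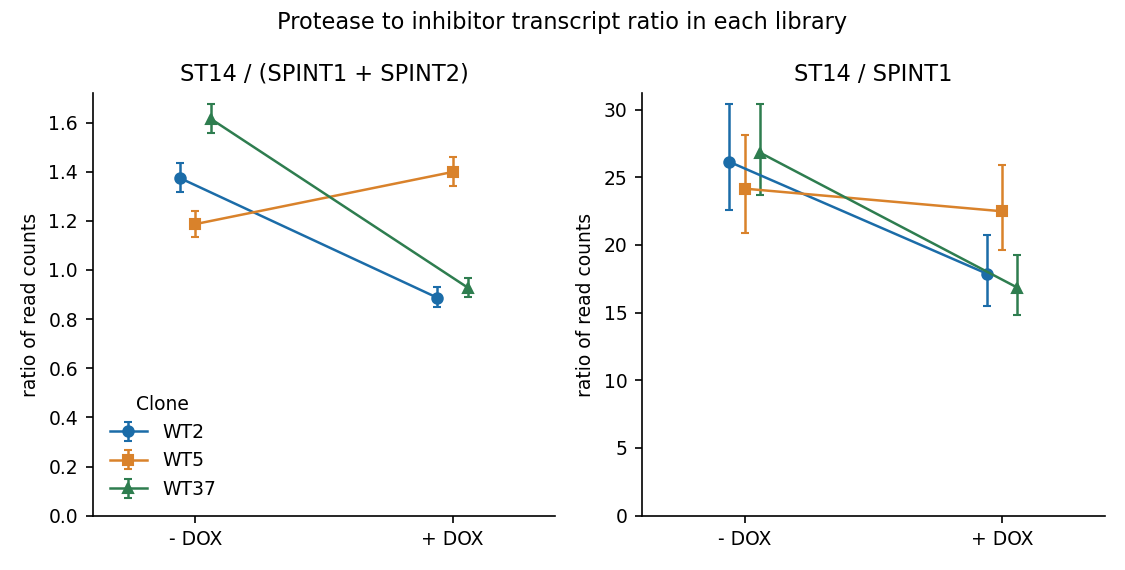
Reads of ST14 per read of both inhibitors (left) and per SPINT1 read (right), vertical axes from 0, in the libraries without and with DOX of each clone. Bars are exact 95% intervals for counting error. On the left WT2 and WT37 go from above 1 to below 1 and WT5 goes up from 1.19 to 1.4, and on the right all 3 clones are lower with DOX, in WT5 with overlapping intervals.

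Other genes of surface proteolysis were read from 4 lists. Among other transmembrane serine proteases, 2 of the 10 in the table passed the filter (TMPRSS3 and TMPRSS5), and 0 of them were called in the blocked fit of edgeR, in the fit without the block or between clones. Of 17 other trypsin-like proteases 10 were tested, 8 of them below 0, where 5732 of all 11732 genes tested were. Their median log2 fold change was -0.54, beside 0.01 for all genes. In the blocked fit 2 fell and 0 rose, where 0.639% of all genes fell and 0.656% rose. PRSS23, a secreted protease and the most abundant gene of the list at 2620 ± 296 CPM without and 1951 ± 18.0 with DOX, fell by 0.46 (SE 0.10, edgeR, adjusted p = 0.0410). KLK6, a kallikrein, went from 25.9 ± 6.21 to 14.8 ± 3.23 CPM (SD, n = 3) and fell by 0.84 (SE 0.15, edgeR, adjusted p = 0.0244). PRSS3 had 56.0 and 38.0 CPM with a log2 fold change of -0.63 (SE 0.15, edgeR with the block, adjusted p = 0.0596). PRSS22 had 23.8 and 8.43 CPM with -1.55 (SE 0.66, edgeR with the block, adjusted p = 0.450). KLK1 had 12.5 and 13.2 CPM, and PLAU, the urokinase gene, had 5.21 ± 0.441 and 5.31 ± 2.37 CPM.

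Other protease inhibitors gave 9 tested genes of 19, with a median of -0.12. With DOX, edgeR called 0 of them in the blocked fit and 0 without the block, beside 1.3% and 0% of all genes. APLP2 and APP, which carry Kunitz domains in some of their transcripts, were the most abundant at 298 and 214 CPM without DOX and 323 and 250 with it. SERPINE2, a serpin of the cell surface, had 125 ± 20.2 and 175 ± 47.9 CPM (SD, n = 3) with a log2 fold change of 0.43 (SE 0.10, edgeR with the block, adjusted p = 0.0706). Between clones, SERPINE2 was the 1 gene of the 9 called (edgeR's F-test, adjusted p = 0.0465), beside 6.84% of all genes. Its clone means were 112, 163 and 174 CPM, in the order WT2, WT5, WT37. SLPI, a secreted inhibitor of mucosal surfaces, had 26.2 ± 9.71 and 20.8 ± 2.58 CPM.

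Substrates and receptors of these proteases gave 14 tested genes of 18, of which 9 were below 0, as were 5732 of all 11732 tested. The median of the 14 was -0.29. In the blocked fit 1 fell and 0 rose, beside 0.639% of all genes lower and 0.656% higher. EPCAM, whose product matriptase is known to cleave, fell by 0.73 (SE 0.12, edgeR with the block, adjusted p = 0.0230), and it was not called without the block (-0.68, adjusted p = 0.693). CLDN7, a claudin that binds EpCAM, had the largest log2 fold change of the list, at 224 ± 38.5 CPM without and 34.2 ± 28.0 CPM with DOX (SD, n = 3), but its log2 fold change of -2.94 (SE 0.59, edgeR with the block, adjusted p = 0.244) was not called. The sodium channel subunit SCNN1A had 108 ± 19.4 and 77.7 ± 15.8 CPM. The receptors MET (188 and 171 CPM), EGFR (36 and 37) and F2RL1, the protease-activated receptor that matriptase cleaves (29.8 and 30.5), kept similar means. The clones differed for F2RL1, with log2 ratios of 0.29 in WT2, -0.72 in WT5 and 0.55 in WT37. For MET they were -0.03, -0.51 and 0.06 in the same order, so MET too was lower with DOX in WT5. Other receptors were lower, as MST1R (12.6 and 8.22 CPM, log2 fold change -0.66 with the block), or higher, as F2R (11.4 and 14.7 CPM, 0.31). Neither was called. Of the 9 tested colon epithelium markers, 2 fell in the blocked fit (EPCAM and KRT18) and 1 rose (CDX2), with a median of -0.64. Over all genes, 0.639% fell and 0.656% rose in that fit. The calls of KLK6, PRSS23, EPCAM, KRT18 and CDX2 were all lost in edgeR's blocked fit without WT2 (adjusted p between 0.136 and 0.428) and without WT37 (0.199 to 0.605), and all were kept without WT5, with the direction the same each time. Over all genes, the blocked fit called 8 without WT2, 5 without WT37 and 743 without WT5, beside 152 with all clones. Between clones, edgeR's F-test called 3 of these 9 markers and 1 of the 14 substrates, beside 6.84% of all genes. CDH17, an intestinal cadherin, had clone means of 11.7, 19.4 and 37.5 CPM, in the order WT2, WT5, WT37 (F-test, adjusted p = 0.00114). EPCAM, the 1 substrate called, had 786, 811 and 556 CPM (0.0309), and KRT18 had 2689, 2265 and 1928 CPM (0.0342). The part of these marker differences in the values of ST14 and TMPRSS13 was not tested.

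**Figure D4:**
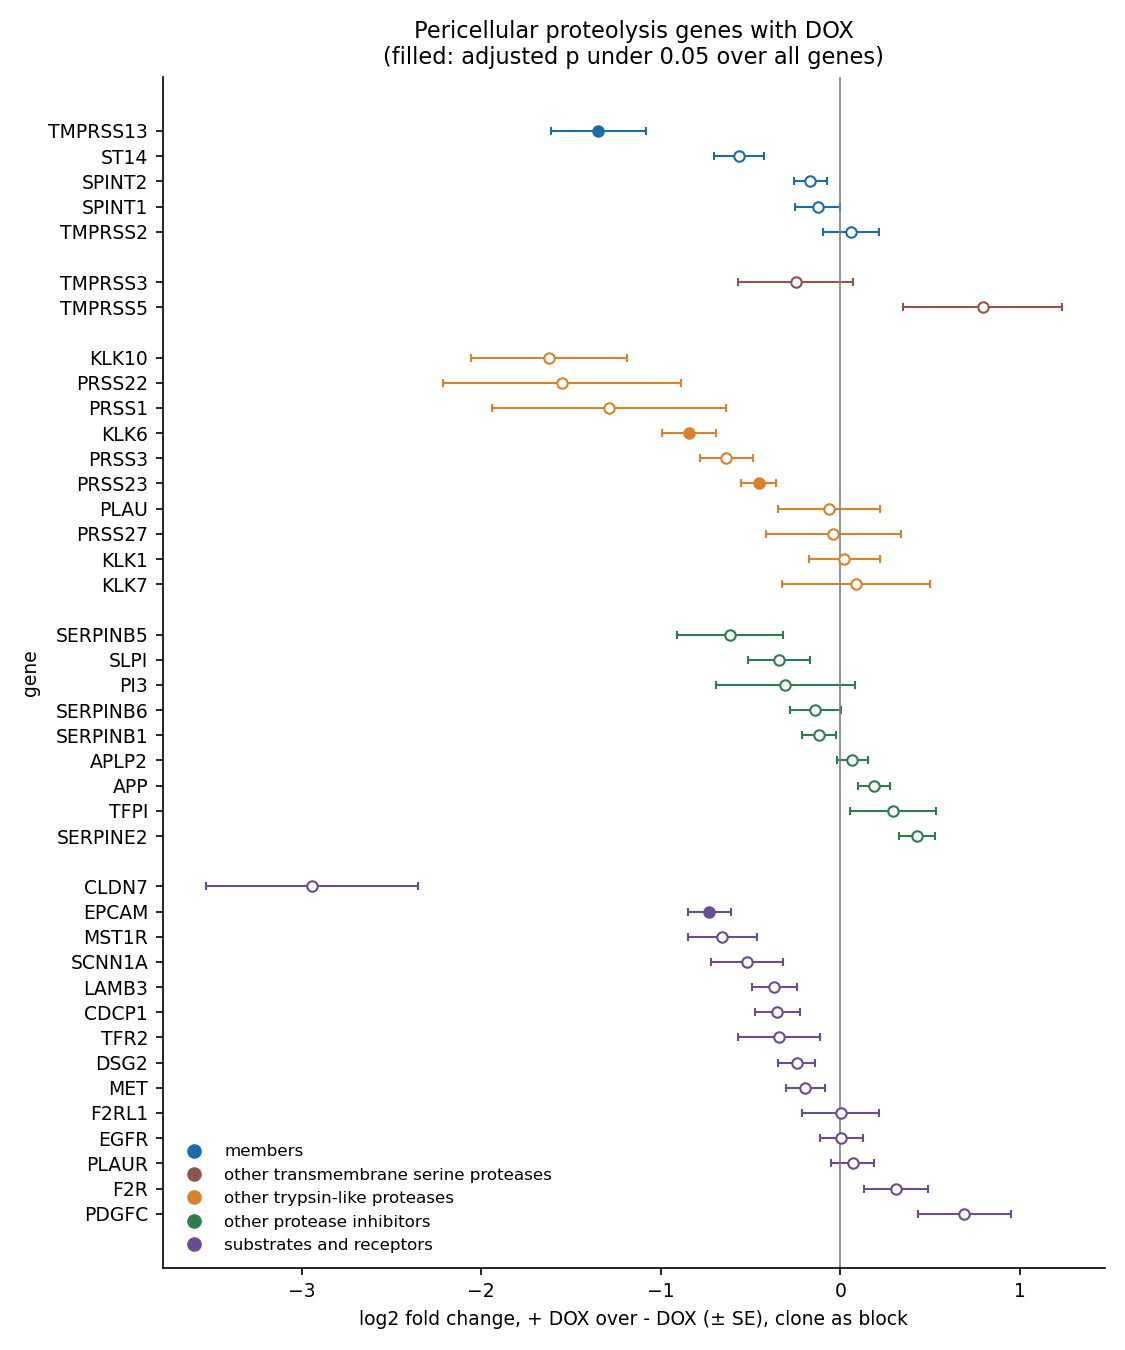
Log2 fold change with over without DOX (horizontal axis, ± SE, clone as block) of the 5 tested members and the tested genes of 4 lists of surface proteolysis, coloured by list. Filled points passed an adjusted p of 0.05 over all genes, which were TMPRSS13, KLK6, PRSS23 and EPCAM, all below 0.

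Clones were compared with DOX as a covariate, 2 libraries per clone. In edgeR's F-test over the 3 clones 0 of the 5 tested members were called, against 6.84% of all genes. At an unadjusted p under 0.05 the test had 1 member, TMPRSS2, and 2915 genes, and DESeq2's likelihood ratio test called 0 members. TMPRSS2 was nearest to the threshold (edgeR, adjusted p = 0.0539), and its clone means were 16.7, 13.0 and 24.0 CPM for WT2, WT5 and WT37.

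Of the 3 pairwise contrasts, WT37 against WT5 called 1 member, TMPRSS2, and 5.92% of all genes. TMPRSS2 was higher in WT37 than in WT5 by 0.80 (SE 0.19, edgeR, adjusted p = 0.0309), a call that was lost in 5 of the 11 alternative settings. WT37 against WT2 called 0 members and 5.83% of genes, with TMPRSS2 at 0.41 (SE 0.19, edgeR, adjusted p = 0.223) and TMPRSS13 at 0.74 (SE 0.32, edgeR, adjusted p = 0.198). WT5 against WT2 called 0 members and 1.02% of genes, with SPINT2 at -0.27 (SE 0.11, edgeR, adjusted p = 0.385).

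The clone means of ST14 were 733, 716 and 784 CPM, in the order WT2, WT5, WT37, and its 3 clone contrasts lay between -0.03 and -0.01 (SE 0.17 each, edgeR, adjusted p between 0.930 and 0.979). The WT37 contrasts lie just below 0 while its mean CPM is the highest, since the contrasts are log-scale differences after TMM scaling and the means are of unscaled CPM. In WT2 and WT37, the ST14 libraries without and with DOX lay farther apart than the clone means did, whereas for TMPRSS2 the clone means lay farther apart than the 2 libraries of any clone. This model takes the DOX effect to be alike in all clones, while the within-clone ratios of ST14 and SPINT2 differed between clones by more than counting error.

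**Figure D5:**
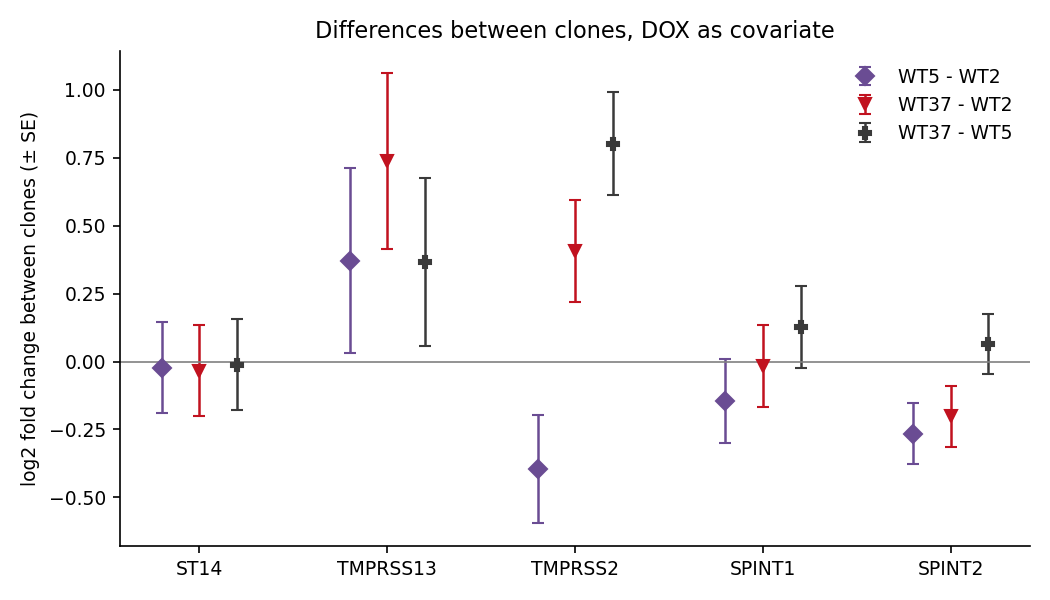
Log2 fold changes between clones (vertical axis, ± SE) for the 5 tested members, from edgeR with DOX as covariate. TMPRSS2 in WT37 against WT5, at 0.80, is the 1 contrast that passed the threshold, and the 3 values of ST14 lie near 0.

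Genes of like pattern were sought for the 4 members with a mean of at least 10 CPM, over the 6 libraries and 8116 tested genes of that level. The measure was the root mean square difference of log2 CPM, each gene centred on its mean, so a small value marks a like profile. For ST14, whose own profile had a root mean square of 0.33, the nearest were the unnamed ENSG00000179979 at 0.0596, the calcium channel gene ITPR2 at 0.0807 and the cytochrome gene CYB5A at 0.0831. The nearest to TMPRSS2 were IDH1 at 0.0849, CCDC167 at 0.0895 and ABTB2 at 0.0996. The flat profile of SPINT1 was nearest to MRPS34, SPIN4 and C19orf48P (0.0296 to 0.0328), and SPINT2 to PLS3, CREG1 and MAIP1 (0.0322 to 0.0423). No other member was among these nearest genes, and with 6 libraries such likeness is a description only.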

How the data were processed

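Total RNA was extracted with a Nucleospin kit and made into 3′ libraries, per the labels' protocols. The authors deposited raw read counts per Ensembl gene for the 6 libraries. DESeq2 and the build GRCh38 appear in the submitters' processing notes. The aligner, the counting program and its strand setting are not given in the sources used. Besides genes, 4 entries hold reads given to no gene: unmapped (4.29% to 5.25%), mapped to several places (11.8% to 16.0%), outside features (8.72% to 11.7%) and ambiguous (6.86% to 7.40%). Neither library sizes nor tests included them. The table has 3634 genes at 0 in all libraries. Gene names were looked up by Ensembl identifier in a name table (22056 named) and GENCODE release 29 (166 more), which also gave positions.

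The main tests came from edgeR 4.0.16 in R 4.3.3 (quasi-likelihood test with robust dispersions, TMM scaling, filterByExpr, Benjamini-Hochberg adjustment over the 11732 genes tested, threshold 0.05). DESeq2 1.42.0 and limma 3.58.1 (voom) served as alternatives, and scripts were tested on simulated data. The DOX fit used no term for the clone, and its alternative took the clone as block. Deviations from the group means correlated within a clone (across genes, r = 0.49 in WT2, 0.28 in WT5, 0.53 in WT37), so the clones, which the series design text gives as replicates, paired the samples. The biological coefficient of variation was 17.9% without and 10.9% with the block. Standard errors are approximate, the change over the root of its F statistic. The clone fit had DOX as covariate. CPM are relative to reads in genes, without TMM. Poisson, binomial and ratio intervals are exact at 95% and cover counting error only, since each clone has 1 library per condition. They take each read as a separate count, and the reads were not counted as molecules. Libraries of 1 group differed by 6.11 to 18.3 times the chi-square expected from sampling, so no pair agreed within sampling noise. Nothing in the labels says how the cultures were kept apart, so p-values measure the spread between these libraries.

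The members, the gene lists and the tests were chosen with earlier results of these data known. Named are all members, genes of the lists past a threshold, up to 6 abundant genes per list, the 3 genes of most like pattern per member (log2 CPM with a prior count of 2) and ZEB2. Outside this rule, EGFR, F2RL1, F2R, MST1R and CDX1 are named from the lists, as are genes near or over the members.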

Additional observations from a re-analysis of the deposited data

How the results depend on the processing

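The direction with DOX of ST14, TMPRSS13, SPINT1 and SPINT2 was the same under all 23 alternatives run for each. Over all genes, the count of 0 without a block became 152 with the replicate block, 155 with the block and DESeq2 size factors as scaling, 133 with the block in DESeq2, 185 with the block in limma-voom, 206 without the filter, 518 with the block without the filter and 57 in DESeq2 without the block. With the block and no robust shrinkage, a setting chosen after seeing the data, it was 183. The fits without the filter tested every gene with at least 1 read, all but 3634 of the 27264. Their counts are therefore of a larger set than the 11732 genes of the filtered fits. Leaving out a clone or a library gave 0 to 35 genes without the block (4 without WT5, 35 without its library with DOX) and 5 to 743 with it (8 without WT2, 743 without WT5, 5 without WT37). Called members numbered 1, TMPRSS13, in each full blocked fit with the filter, and 2, ST14 and TMPRSS13, without the filter (with and without the block) and in the blocked fit without WT5. Leaving out a clone or library otherwise gave 0, so the range was 0 to 2. ST14 had a log2 fold change of -0.40 to -0.79 and TMPRSS13 of -1.06 to -1.74 over these settings. The sign of TMPRSS2 turned without WT2 (-0.03), without WT5 (-0.0082, and -0.0042 with the block), without the libraries lacking DOX of WT2 (-0.02) or WT5 (-0.17) and without the WT37 library with DOX (-0.13), in a range of -0.166 to 0.345.

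Between clones, the count of 802 genes was 1783 without the filter, 441 in DESeq2's likelihood ratio test and 129 to 2286 with a clone or library left out. The 1783 are of all genes with at least 1 read, a larger set than the 11732 genes behind the 802. Called members went from 0 to 1 without the filter (TMPRSS2) and 0 to 2 with a clone or library left out: SPINT2 without the WT5 library lacking DOX, TMPRSS2 and TMPRSS13 without the WT5 library with DOX. Leaving out single libraries turned signs, with ranges for ST14 of -0.388 to 0.308 (WT5 against WT2), -0.296 to 0.194 (WT37 against WT2) and -0.353 to 0.339 (WT37 against WT5), for TMPRSS13 of -0.140 to 1.03 (WT5 against WT2) and -0.293 to 0.877 (WT37 against WT5), for SPINT1 of -0.0910 to 0.0543 (WT37 against WT2) and for SPINT2 of -0.0818 to 0.207 (WT37 against WT5). The cause was not tested. With 1 library per clone and condition, depth limits TMPRSS13, TMPRSS4 and PRSS8 most.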

Other observations

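TMPRSS13 and TMPRSS4 lie on chromosome 11 with their starts 176 kb apart, and ST14 lies on the same chromosome about 12083 kb from TMPRSS4. Within 500 kb of TMPRSS13, 5 other genes were tested, and 1 fell in the blocked fit, beside 0.639% of all genes. It was MPZL2, a cell adhesion gene of epithelia 324 kb away, with a log2 fold change of -0.73 (SE 0.13, edgeR with the clone as block, adjusted p = 0.0194). In the same fit MPZL2 was not called without WT2 (-0.70, adjusted p = 0.185) or without WT37 (-0.57, 0.298), where 8 and 5 of all genes were called. MPZL3, the neighbour of MPZL2, was at -0.58 (SE 0.22, edgeR with the block, adjusted p = 0.279), and UBE4A, ATP5MG and CEP164 lay between -0.08 and 0.09. Within 500 kb of ST14, 0 of 6 tested genes were called, and the nearest, APLP2 and ZBTB44, were at 0.07 and 0.19. Within 500 kb of SPINT1 (21 tested genes), SPINT2 (10), PRSS8 (23) and TMPRSS2 (4) edgeR's blocked fit called 0 genes. MPZL2 was looked at after its values were seen.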
